A study of Mus musculus with 24 samples.

Results

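The change common to 4 mouse tissues when Prxl2a is knocked out was measured as the average difference between knockout (KO) and wild-type (WT) libraries over inguinal fat, brown fat, brain and liver, with tissue kept as a separate term. All 24 RNA-seq libraries of the series were members, 3 WT and 3 KO in each tissue. The mice were females of 12 weeks, fed normally and perfused with PBS to clear blood before the tissues were frozen. The tissues were inguinal adipose tissue (IAT), brown adipose tissue (BA), brain (BR) and liver (LV), and the only stated difference between the groups was the Prxl2a genotype. The labels give neither the strain of either genotype, nor the allele, nor whether the groups were littermates. With 3 mice per genotype in the design, 1 mouse may have given several tissues, but no label ties a library to a mouse. P-values here measure the spread between these libraries.

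Prxl2a encodes a peroxiredoxin-like protein with a thioredoxin-type fold, named for its likeness to enzymes that reduce peroxides. Fat stores and burns lipid, liver handles nutrients and brain has its own programme, and each expresses a largely distinct set of abundant genes. One system that runs in most tissues is the circadian clock, a loop in which Arntl and Clock activate Per, Cry, Nr1d1 and Dbp genes and the Nr1d1 protein represses Arntl.

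The genotype labels were checked first. Prxl2a read 396, 267 and 255 CPM in WT against 7.29, 18.8 and 12.3 CPM in KO libraries of inguinal fat, and 473, 499.8 and 498 CPM in WT against 22.4, 25.4 and 18.8 CPM in KO libraries of brown fat. The Prxl2a values were 80.4, 63.1 and 88.99 CPM in WT against 3.94, 4.16 and 4.76 CPM in KO libraries of brain, and 153, 134 and 121 CPM in WT against 2.85, 1.56 and 3.59 CPM in KO libraries of liver. In no tissue did a KO library reach the lowest WT library. On average over the tissues, Prxl2a (GRCm38.p6 chromosome 14, 40993735 to 41013833) fell by 4.66 (SE 0.18, edgeR adjusted p = 1.17e-13) on the log2 scale. By tissue the change was -4.58 in inguinal fat, -4.46 in brown fat, -4.17 in brain and -5.66 in liver, and the tissue by genotype term did not pass (edgeR adjusted p = 0.152). The 27 other genes tested within 5 Mb of Prxl2a gave 0 calls in edgeR, against 3 at an unadjusted p under 0.05. Only 10 of the 27 averaged at least 1 CPM in every tissue, so a change could be read in all tissues for these alone. DESeq2 called 0 of them and limma-voom 1. Over all 15798 genes tested, 3043 had an unadjusted p under 0.05 in edgeR, and limma-voom called 630.

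Of 15798 genes tested, 265 changed on average over the 4 tissues (edgeR adjusted p under 0.05), which is 1.68%. Of these, 107 were higher and 158 lower in KO. A gene was then called changed alike if it also averaged at least 1 CPM (a count scaled to a fixed library size) in every tissue and had the same sign of difference in all 4. Of the 10636 genes measured in this way, 200 (1.88%) were called. Of these, 21 had mixed signs, and the condition held for 179 genes, 90 higher and 89 lower, which is 1.68% of the 10636 genes measured in every tissue. Among measured genes that were not called, 16.9% also had 1 sign in all 4 tissues. For 33 of the 179, or 0.310% of measured genes, the KO and WT libraries did not overlap in any tissue; 24 of these were higher and 9 lower in KO.

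**Figure D1:**
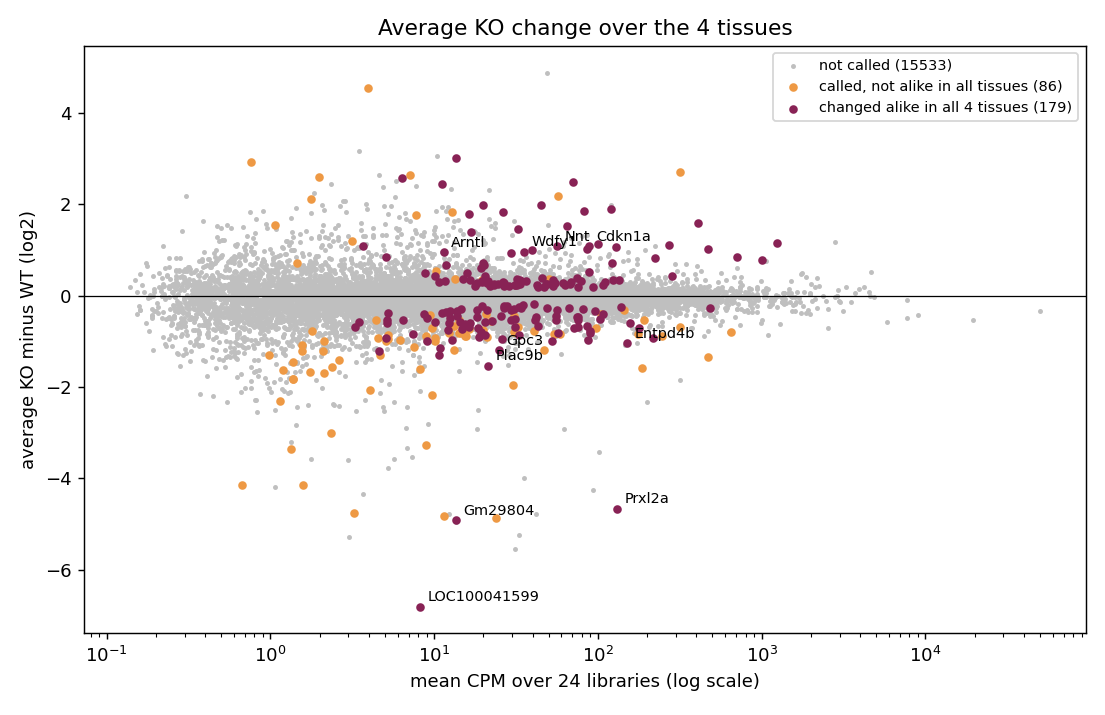
Average KO minus WT change (log2, vertical axis) of each of 15798 tested genes against its mean CPM over 24 libraries (horizontal log axis). Grey points were not called, orange points were called without being alike in all tissues, and purple points are the 179 genes changed alike; Prxl2a sits at -4.66.

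Most of these changes were small. The median absolute change of the 179 genes was 0.50 on the log2 scale, and 89 changed by less than 0.5. Of the 32 that changed by at least 1, 24 were predicted gene models, meaning loci known only by a Gm, Rik or LOC number. The change was smallest in brain for 111 of the 179. The median absolute change of the same genes was 0.61 in inguinal fat, 0.50 in brown fat, 0.23 in brain and 0.52 in liver. Within a single tissue of the same fit, 117 of the 179 were called in inguinal fat, where 16.1% of all genes were called, 35 in brown fat (1.20% of all), 8 in brain (0.0633%) and 33 in liver (0.639%). In all 4 tissues separately, 6 genes were called. These per-tissue tests share 1 estimate of spread per gene over the tissues, although replicates were less alike in inguinal fat. The lowest correlation between replicates, 0.914, was between KO libraries 1 and 2 of inguinal fat. The per-tissue counts therefore do not reflect the spread of each tissue and are not compared between tissues.

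Some libraries stood apart, and their part in the averages was not tested beyond leaving them out. Summed over 10 lymphocyte markers, KO libraries of inguinal fat ranged from 2.71 to 1241 CPM, with libraries 1 and 3 high, against 5.07 to 9.41 CPM in WT. Summed over 8 skeletal muscle markers, WT libraries ranged from 3.70 to 2694 CPM in inguinal fat and from 1.25 to 1515 CPM in brown fat, with inguinal libraries 1 and 2 and brown fat library 1 high and every marker detected. KO libraries reached 33.1 and 83.7 CPM. Without the 2 lymphocyte-rich libraries, 77 of the 179 genes were still called, and without the 3 muscle-rich libraries 60 were. On average over the tissues, all 9 tested lymphocyte markers were higher in KO and all 8 muscle markers were lower, as in the libraries that stood apart. None of them was called, where edgeR called 1.68% of all genes. With so wide a spread within a group a call is hard to reach, so the lack of calls does not clear the averages of these cells. Adipoq in both fats, Snap25 and Gfap in brain and Alb in liver marked the labelled tissues. In bulk tissue, fewer cells of a type and less RNA per cell cannot be told apart.

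Several of the genes whose libraries did not overlap in any tissue belong to families of near-identical copies, for which reads cannot be assigned to 1 copy with certainty, so their family sums follow. Of the 33 genes whose libraries did not overlap, 17 matched a GENCODE transcript by symbol, and 7 of those 17 (41.2%) had a copy of at least 95% identity over at least 80% of their length, against 2.04% of 10492 measured genes with a transcript. The coding sequences of the Dynlt1 and Srp54 copies are shown because their coding differences are few. Over the whole transcript, the other copies were 98.8% to 99.2% identical to Dynlt1b and 99.6% to 99.7% identical to Srp54b. Further differences therefore lie outside the coding sequence and are not shown. Each stretch is 120 bases of coding sequence, 5′ to 3′, from GENCODE vM21 (GRCm38), and capitals mark positions that differ between copies. The bases span introns at chr17:6430212-6435058 (plus strand) for Dynlt1b and at chr12:55176943-55177606 (plus strand) for Srp54b.
Dynlt1b: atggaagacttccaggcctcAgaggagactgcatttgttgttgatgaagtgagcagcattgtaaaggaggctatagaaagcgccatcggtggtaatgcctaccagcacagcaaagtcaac
Dynlt1a: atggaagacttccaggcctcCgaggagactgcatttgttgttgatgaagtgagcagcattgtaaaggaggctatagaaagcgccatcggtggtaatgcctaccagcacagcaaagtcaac
Dynlt1c: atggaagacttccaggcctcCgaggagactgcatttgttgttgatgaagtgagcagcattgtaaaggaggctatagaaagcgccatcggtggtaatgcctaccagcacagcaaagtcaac
Dynlt1f: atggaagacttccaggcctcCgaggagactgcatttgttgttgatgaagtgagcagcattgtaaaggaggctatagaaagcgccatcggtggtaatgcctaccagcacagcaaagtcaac
Srp54b: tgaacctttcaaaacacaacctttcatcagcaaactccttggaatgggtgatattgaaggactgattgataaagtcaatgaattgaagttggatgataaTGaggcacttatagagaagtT
Srp54a: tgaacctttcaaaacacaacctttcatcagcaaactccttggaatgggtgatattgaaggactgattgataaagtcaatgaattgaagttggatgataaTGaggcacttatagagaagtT
Srp54c: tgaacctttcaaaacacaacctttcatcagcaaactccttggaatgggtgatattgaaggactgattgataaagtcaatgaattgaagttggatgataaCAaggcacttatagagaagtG
The 4 Dynlt1 copies, on chromosome 17, differed at 1 of 342 coding positions: counted from 1 at the start codon of Dynlt1b, the other copies carried A21C, the base of Dynlt1b being written first. The 3 Srp54 copies, on chromosome 12, had 6 variable positions among 1515 coding bases. Srp54a matched Srp54b at all of them, and Srp54c carried T501C, T945C, G946A, T965G, A1197T and G1249A relative to Srp54b.

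Dynlt1b (GRCm38.p6 chromosome 17, 6429530 to 6440500), a light chain of the dynein motor, was higher in KO. Dynlt1b read 24.8, 24.5 and 32.4 CPM in WT against 40.6, 45.5 and 39.3 CPM in KO libraries of inguinal fat, and 23.7, 19.1 and 22.2 CPM in WT against 30.1, 33.2 and 30.8 CPM in KO libraries of brown fat. The Dynlt1b values were 5.91, 6.89 and 5.35 CPM in WT against 8.47, 10.2 and 11.6 CPM in KO libraries of brain, and 8.36, 8.87 and 8.44 CPM in WT against 13.8, 14.8 and 17.3 CPM in KO libraries of liver. No KO library overlapped a WT library. Dynlt1b averaged 0.68 (SE 0.07, edgeR adjusted p = 4.92e-06). Dynlt1a, Dynlt1c and Dynlt1f did not pass, with values of 0.20, -0.22 and -0.23. In KO the sum of the 4 copies was 1.06 to 1.37 times the WT mean in the 4 tissues, and its KO and WT libraries overlapped in brown fat.

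Srp54b (GRCm38.p6 chromosome 12, 55155104 to 55189213), a copy of the signal recognition particle subunit that targets secreted proteins to the ER, was lower. Srp54b read 93.7, 69.2 and 76.5 CPM in WT against 31.9, 46.8 and 36.9 CPM in KO libraries of inguinal fat, and 90.6, 80.9 and 86.9 CPM in WT against 68.9, 50.6 and 63.5 CPM in KO libraries of brown fat. The Srp54b values were 90.8, 92.4 and 96.6 CPM in WT against 69.00, 56.2 and 53.2 CPM in KO libraries of brain, and 94.9, 90.2 and 95.01 CPM in WT against 72.4, 54.1 and 52.4 CPM in KO libraries of liver. The groups did not overlap in any tissue. Its average was -0.71 (SE 0.08, edgeR adjusted p = 2.88e-05), while Srp54a and Srp54c were at -0.16 and -0.07 and did not pass. Summed over the 3 copies, KO stood at 0.733 to 0.844 of WT with no overlap in any tissue. Fam177a (GRCm38.p6 chromosome 12, 55124435 to 55142104) lies between Srp54a and Srp54b. It had KO values below WT in every tissue and averaged -0.55 (SE 0.07, edgeR adjusted p = 2.99e-05). Its copy 1700047I17Rik2 averaged -0.45 (SE 0.06, edgeR adjusted p = 8.54e-05). The sum of these 2 copies in KO was 0.640 to 0.735 of WT, with no overlap in any tissue. Fam177a, Srp54b and 1700047I17Rik2 lie within 55124435 to 55217168, where 4 genes were tested. That span was bounded by the called genes themselves, so its 3 calls are not compared with the share over all genes.

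Entpd4b (GRCm38.p6 chromosome 14, 69555401 to 69584940), an intracellular nucleoside diphosphatase, was lower in KO. Entpd4b read 74.6, 65.4 and 65.1 CPM in WT against 31.02, 36.9 and 30.9 CPM in KO libraries of inguinal fat, and 602, 689 and 500.0 CPM in WT against 283, 169 and 241 CPM in KO libraries of brown fat. The Entpd4b values were 92.6, 100.2 and 107 CPM in WT against 47.1, 56.2 and 45.9 CPM in KO libraries of brain, and 85.99, 76.1 and 77.3 CPM in WT against 46.9, 50.3 and 50.4 CPM in KO libraries of liver. In each tissue the highest KO library lay below the lowest WT library. The average was -1.04 (SE 0.09, edgeR adjusted p = 1.38e-07). Entpd4, whose transcript was identical to that of Entpd4b over its full length, was at 0 in several libraries and did not pass. The sum of both was 0.383 to 0.626 of WT across tissues, again with no overlap. Plac9b, a small secreted-type protein gene, fell by 1.54 (SE 0.26, edgeR adjusted p = 0.00269), and the Plac9 family sum was 0.251 to 0.526 of WT. Gm3435 and 9030025P20Rik, near-identical copies of each other, were higher in KO without overlap in any tissue. Summed with Ermard, their family stood at 1.09 to 1.35 times WT, and its KO and WT libraries overlapped in brown fat and liver.

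Wdfy1 (GRCm38.p6 chromosome 1, 79702262 to 79776143), which binds the endosomal lipid PI3P through a FYVE domain, was higher in KO. Wdfy1 read 21.4, 22.6 and 20.8 CPM in WT against 33.6, 42.7 and 36.2 CPM in KO libraries of inguinal fat, and 19.3, 24.9 and 24.9 CPM in WT against 52.6, 54.97 and 53.6 CPM in KO libraries of brown fat. The Wdfy1 values were 24.2, 22.8 and 21.9 CPM in WT against 56.5, 44.2 and 53.9 CPM in KO libraries of brain, and 29.5, 29.6 and 26.4 CPM in WT against 44.5, 48.02 and 40.8 CPM in KO libraries of liver. The lowest KO library exceeded the highest WT library in each tissue. It averaged 0.96 (SE 0.08, edgeR adjusted p = 3.95e-08) and passed within each of the 4 tissues. Pik3c3, the class III kinase that makes PI3P, was also higher. Pik3c3 read 36.9, 31.5 and 32.9 CPM in WT against 120.4, 87.2 and 98.8 CPM in KO libraries of inguinal fat, and 46.9, 43.5 and 44.6 CPM in WT against 84.3, 86.7 and 76.1 CPM in KO libraries of brown fat. The Pik3c3 values were 48.7, 57.6 and 46.5 CPM in WT against 68.7, 69.9 and 63.5 CPM in KO libraries of brain, and 98.2, 125 and 85.4 CPM in WT against 292, 313 and 364 CPM in KO libraries of liver. No library of one genotype overlapped the other. Pik3c3 averaged 1.13 (SE 0.13, edgeR adjusted p = 1.93e-05), with changes of 1.60 in inguinal fat, 0.87 in brown fat, 0.40 in brain and 1.65 in liver for which the tissue by genotype term passed (edgeR adjusted p = 0.00755). The brain change did not pass on its own. By mean TPM, Pik3c3 went from 17.98 in WT to 34.05 in KO inguinal fat and from 15.17 to 17.90 in brown fat. In brain it went from 47.99 to 53.23 and in liver from 14.10 to 41.77. These rises were smaller than by counts in both fats and brain, for a reason that was not tested. Over the 53 alternative settings its average ranged from 0.69 to 1.36. Of the 21 tested genes of the PI3P and endosome list, Wdfy1 and Pik3c3 were called higher and none lower, where edgeR called 1.68% of all genes. This list, like those below, was chosen with earlier results of these data known. Its count beside the share over all genes is therefore a description and not a test. The list median was -0.02 against -0.01 over all genes. Rab4a, a small GTPase of early endosomes outside that list, averaged 0.70 (SE 0.13, edgeR adjusted p = 0.00417), most in brown fat at 1.61 and least in brain at 0.17.

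Nnt (GRCm38.p6 chromosome 13, 119335527 to 119409257), the mitochondrial enzyme that makes NADPH from NADH with the proton gradient, was higher in KO. Nnt read 14.5, 17.04 and 19.95 CPM in WT against 35.3, 42.8 and 40.6 CPM in KO libraries of inguinal fat, and 7.70, 4.44 and 3.65 CPM in WT against 8.40, 7.60 and 6.28 CPM in KO libraries of brown fat. The Nnt values were 16.8, 16.5 and 18.4 CPM in WT against 29.3, 31.9 and 30.04 CPM in KO libraries of brain, and 84.6, 74.2 and 83.97 CPM in WT against 262, 254 and 242 CPM in KO libraries of liver. The groups did not overlap in inguinal fat, brain and liver, and in brown fat 1 WT library lay within the KO range. Its average was 1.08 (SE 0.12, edgeR adjusted p = 1.62e-05). Tmem267 (chromosome 13, 119488086 to 119610459), which lies beside Nnt, moved the other way and fell by 0.97 (SE 0.15, edgeR adjusted p = 0.000625). Of 14 tested NADPH enzymes, edgeR called 1, Nnt, while DESeq2 and limma-voom each called 1 higher and 1 lower. Nnt, Wdfy1 and Entpd4b also made up the 3 called of 8 tested genes on a list of genes reported to differ between C57BL/6 substrains, where edgeR called 1.68% of all genes. DESeq2 and limma-voom each called 4 of the 8, and 745 and 630 of all genes. Because this list too was chosen with earlier results of these data known, these counts are not a test of a substrain difference.

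**Figure D2:**
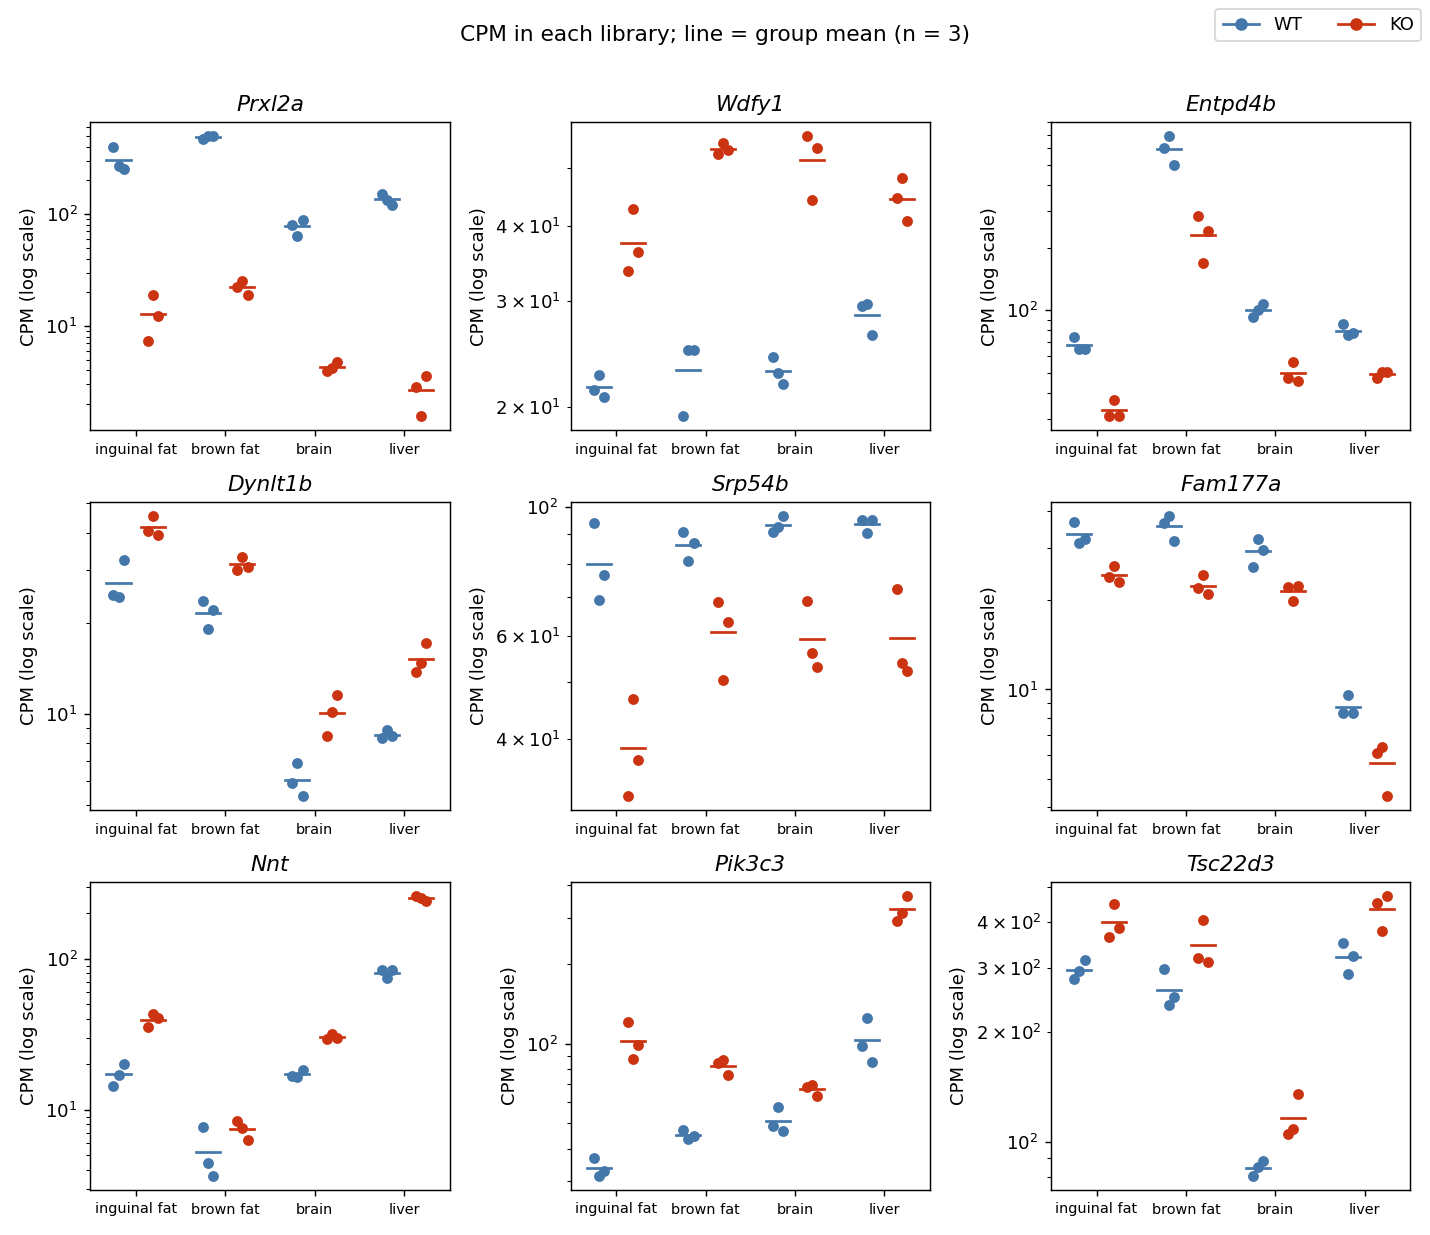
CPM in each library (points, log axis) of 9 genes by tissue, with WT in blue and KO in red and lines at the group means (n = 3). In the 8 genes shown other than Nnt, KO and WT points do not overlap in any tissue; Nnt overlaps in brown fat.

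Predicted gene models were more frequent among the shared changes than named genes: 30 of 259 measured models (11.6%) changed alike, against 149 of 10377 named genes (1.44%). Of these, 24 were higher and 6 lower. Their reads may be shared with other loci. The 24 higher models summed to 621, 1072 and 1034 CPM in WT against 5016, 2123 and 3663 CPM in KO libraries of inguinal fat, a ratio of 3.96. KO libraries 1 and 3, the higher of these, were those with 1241 and 645 CPM of lymphocyte markers, against 2.71 CPM in library 2. Without libraries 1 and 3, 23 of the 24 models were still called, and without liver 13 were. The ratio was 1.74 in brown fat, 1.31 in brain and 2.68 in liver. LOC115488503 averaged 2.47 (SE 0.16, edgeR adjusted p = 1.68e-09), and LOC115487803 averaged 2.56 (SE 0.35, edgeR adjusted p = 0.000195). In the other direction, 2 models were near 0 in KO libraries of both fats and liver. LOC100041599 measured 41.1, 66.7 and 28.02 CPM in WT brain and 0.504, 0.331 and 0.141 CPM in KO brain, and it was at most 0.135 CPM in any KO library of the other tissues. Gm29804 (GRCm38.p6 chromosome 4, 41890443 to 41893163) measured 17.1, 17.6 and 10.9 CPM in WT liver and 0.197, 0 and 0.194 CPM in KO liver. In brain Gm29804 measured 67.5, 96.6 and 54.4 CPM in WT and 4.08, 5.44 and 5.04 CPM in KO, a change of -3.91 (SE 0.50). Both were called (edgeR adjusted p = 4.88e-11 and 2.64e-08), and no average fold is given because several KO libraries were at 0.

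Tsc22d3 (GRCm38.p6 chromosome X, 140539528 to 140600522), a leucine zipper protein induced by glucocorticoid hormone, rose by nearly the same amount in each tissue. Tsc22d3 read 279, 294 and 316 CPM in WT against 364, 450.2 and 386 CPM in KO libraries of inguinal fat, and 298, 237 and 249.9 CPM in WT against 319, 406 and 312 CPM in KO libraries of brown fat. The Tsc22d3 values were 80.5, 85.1 and 88.4 CPM in WT against 105, 109 and 135 CPM in KO libraries of brain, and 352, 289 and 323 CPM in WT against 451, 378 and 474 CPM in KO libraries of liver. The groups did not overlap. It averaged 0.43 (SE 0.06, edgeR adjusted p = 0.000529), with changes of 0.43 in inguinal fat, 0.40 in brown fat, 0.46 in brain and 0.44 in liver. Fkbp5, a co-chaperone of the steroid receptors, averaged 0.83 (SE 0.16, edgeR adjusted p = 0.00722). Fkbp5 read 163, 144 and 224 CPM in WT against 206, 413 and 298 CPM in KO libraries of inguinal fat, and 115, 70.3 and 117 CPM in WT against 237, 342 and 196 CPM in KO libraries of brown fat. The Fkbp5 values were 43.3, 28.1 and 56.7 CPM in WT against 54.1, 57.7 and 55.1 CPM in KO libraries of brain, and 304, 215 and 411 CPM in WT against 555, 608 and 445 CPM in KO libraries of liver. KO exceeded WT without overlap in brown fat and liver only. Cdkn1a, an inhibitor of cyclin-dependent kinases, averaged 1.09 (SE 0.23, edgeR adjusted p = 0.0136). It was the 1 called of 18 tested DNA damage and p53 target genes, where edgeR called 1.68% of all genes. Others that rose were Plin4, a lipid droplet coat protein (0.85), Ppp1r3c, a glycogen-targeting phosphatase subunit (0.72), and Arrdc2, an arrestin-domain protein (0.61). Of 53 alternative settings, Plin4 lost its call in 18 and Ppp1r3c in 27. Fkbp5 and Cdkn1a lost theirs in 8 each, including without the muscle-rich libraries (0.77 and 0.98) and with means over tissues per genotype and number (0.84 and 1.12).

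Of 22 tested clock genes, edgeR called 2 higher and 2 lower on average, against 1.68% of all genes called in either direction. DESeq2 called 2 higher and 4 lower, and limma-voom 2 and 2, where they called 745 and 630 of all genes. Arntl, the activator of the loop, rose by 0.95 (SE 0.21, edgeR adjusted p = 0.0189). Arntl read 1.85, 2.67 and 4.64 CPM in WT against 10.3, 3.51 and 6.83 CPM in KO libraries of inguinal fat, and 2.28, 2.42 and 2.25 CPM in WT against 4.16, 9.92 and 7.58 CPM in KO libraries of brown fat. The Arntl values were 19.5, 25.1 and 24.6 CPM in WT against 29.1, 29.8 and 27.5 CPM in KO libraries of brain, and 6.97, 7.08 and 7.93 CPM in WT against 10.4, 7.87 and 20.2 CPM in KO libraries of liver. The KO mean was above the WT mean in every tissue, and the libraries did not overlap in brown fat and brain but did in inguinal fat and liver. Cry1, a repressor, averaged 0.31 (SE 0.07, edgeR adjusted p = 0.0165). Nr1d1 fell by 0.77 (SE 0.17, edgeR adjusted p = 0.0189) and Dbp, an output transcription factor, fell by 0.84 (SE 0.20, edgeR adjusted p = 0.0307). Dbp read 128, 104 and 62.7 CPM in WT against 48.6, 57.8 and 47.9 CPM in KO libraries of inguinal fat, and 106, 75.6 and 59.1 CPM in WT against 48.1, 24.9 and 17.2 CPM in KO libraries of brown fat. The Dbp values were 65.1, 77.4 and 49.5 CPM in WT against 58.6, 80.5 and 69.02 CPM in KO libraries of brain, and 65.98, 61.6 and 35.4 CPM in WT against 25.8, 27.7 and 20.6 CPM in KO libraries of liver. Dbp was lower in every KO library of inguinal fat, brown fat and liver, and in brain the groups overlapped. Neither Nr1d1 nor Dbp was changed alike, since their brain differences were above 0, at 0.01 and 0.12. Without the 2 lymphocyte-rich libraries 1 clock gene was called higher and 0 lower, as without the 3 muscle-rich libraries and without inguinal fat, and 0 were called without brown fat or without liver. With means over tissues per genotype and number, which treat 3 numbers as the replicates of each genotype, Cry1, Nr1d1 and Dbp did not pass (limma adjusted p = 0.102, 0.0605 and 0.103). Clock itself, at 0.25, did not pass.

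RefSeq promoter windows (GRCm38.p6, 250 bases before to 50 after the start) of the called clock genes Arntl, Cry1, Nr1d1 and Dbp were searched for 2 motifs. Only windows that held a motif are shown, so the display was chosen by its outcome. Capitals mark the motif found on either strand: CACGTG, the E-box bound by the Arntl-Clock dimer, and TAGGTCA, the ROR element core bound by Nr1d1.
Cry1, chr10:85185005-85185304, minus strand: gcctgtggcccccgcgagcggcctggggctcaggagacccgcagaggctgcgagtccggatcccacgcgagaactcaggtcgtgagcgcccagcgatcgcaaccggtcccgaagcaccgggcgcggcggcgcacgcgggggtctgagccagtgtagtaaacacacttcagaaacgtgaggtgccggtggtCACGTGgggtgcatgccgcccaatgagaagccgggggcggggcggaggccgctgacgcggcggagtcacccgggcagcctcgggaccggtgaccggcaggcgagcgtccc
Arntl, chr7:113207261-113207560, plus strand: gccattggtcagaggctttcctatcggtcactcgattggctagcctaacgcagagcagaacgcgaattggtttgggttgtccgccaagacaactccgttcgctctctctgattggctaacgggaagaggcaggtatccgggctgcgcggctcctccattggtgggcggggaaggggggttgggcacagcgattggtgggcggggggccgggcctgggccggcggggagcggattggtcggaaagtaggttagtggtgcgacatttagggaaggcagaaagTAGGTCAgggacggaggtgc
CACGTG was present in 7.15% and TAGGTCA in 2.61% of all 32851 windows of that length. Neither was found in the windows of Nr1d1 and Dbp. The Arntl window is 1 of 2 listed for that gene, and the other held neither motif. A match is a description of the letters in the window and says nothing of binding.

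Stromal matrix genes, which encode collagens and the enzymes that remodel them, were mostly lower in KO. Of 25 tested stromal genes, 24 were lower on average, with a median change of -0.58 against -0.01 over all genes, and 5 were called lower and 0 higher, where 158 of all 15798 genes were called lower. The called genes were Mmp2, a gelatinase that cuts collagen, Timp2, its inhibitor, and the collagen chains Col1a1, Col3a1 and Col1a2. Mmp2 read 309, 556 and 469.9 CPM in WT against 149, 180.0 and 158 CPM in KO libraries of inguinal fat, and 85.9, 38.9 and 30.6 CPM in WT against 31.9, 22.00 and 35.5 CPM in KO libraries of brown fat. The Mmp2 values were 2.26, 1.55 and 2.13 CPM in WT against 1.69, 1.09 and 1.51 CPM in KO libraries of brain, and 3.98, 7.52 and 4.02 CPM in WT against 1.57, 3.01 and 3.79 CPM in KO libraries of liver. KO lay below WT without overlap in inguinal fat and liver. Mmp2 averaged -0.97 (SE 0.19, edgeR adjusted p = 0.00817) and Timp2 -0.92 (SE 0.21, edgeR adjusted p = 0.0231). Col1a1 averaged -0.85 (SE 0.20, edgeR adjusted p = 0.0278), but its brain value was -0.06. The brain median of the list was -0.13, against -0.72 in inguinal fat, -0.60 in brown fat and -0.73 in liver. None of the 5 calls held without the 2 lymphocyte-rich libraries, and none held without the 3 muscle-rich libraries, although the list median was -0.44 and -0.50, with 24 of 25 genes lower in each. Without liver 0 were called. Summed over 6 macrophage markers, inguinal fat held 586 to 2074 CPM in WT against 454 to 549 CPM in KO with every marker detected, and all 6 were below 0 on average without a call. Their part in the stromal values was not tested. Outside the list, Aebp1 (-0.99), Gpc3 (-1.20), a heparan sulphate proteoglycan, and Ptgis (-0.92), prostacyclin synthase, fell too. Each of these 3 lost its call without the lymphocyte-rich libraries (-0.96, -1.06 and -0.76) and without the muscle-rich libraries (-0.75, -1.01 and -0.77), and Aebp1 was at -0.12 in brain.

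**Figure D3:**
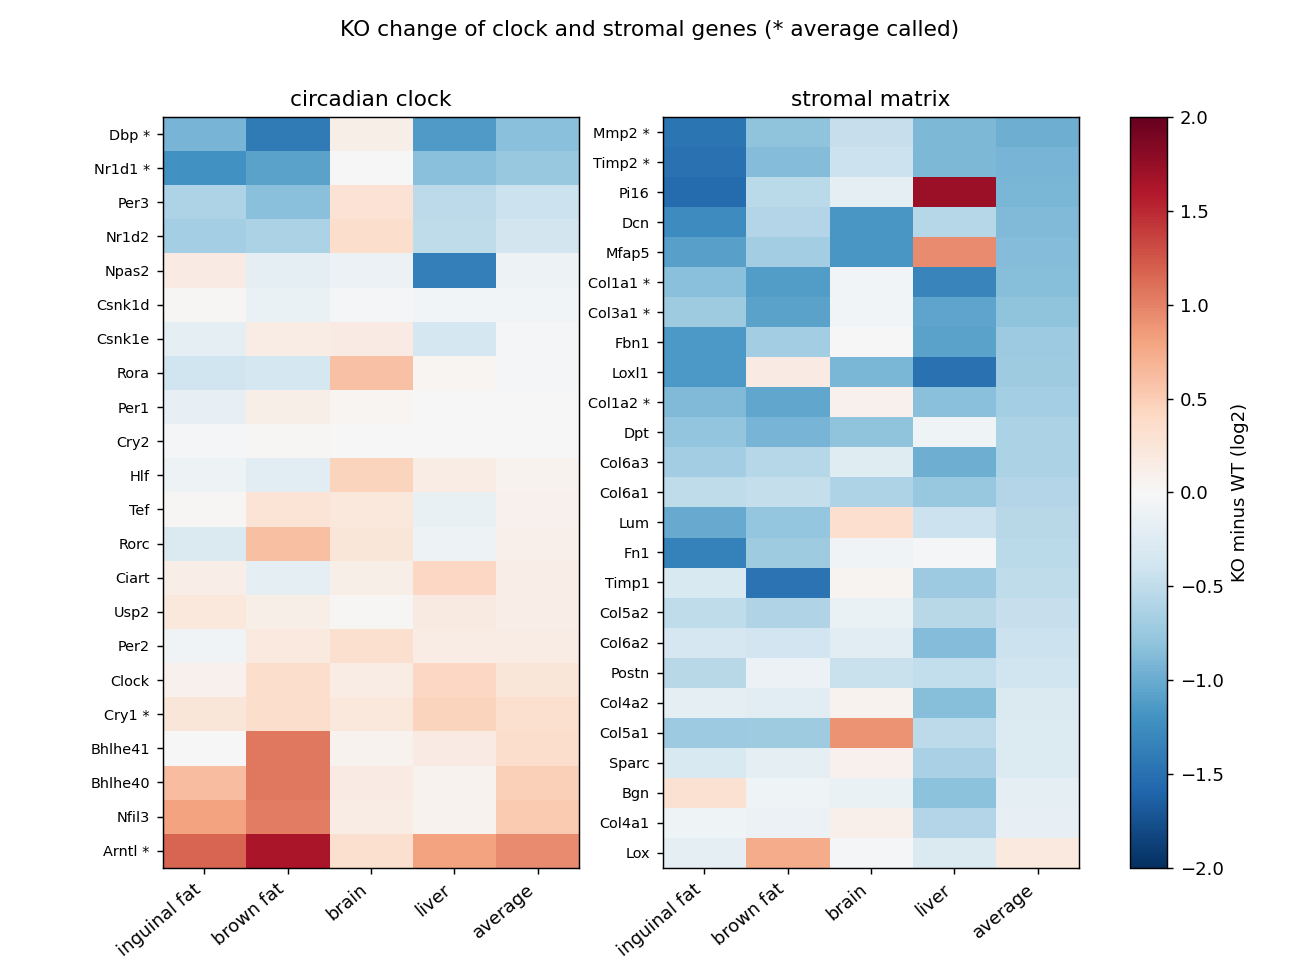
KO minus WT change (log2) of each tested clock gene (left) and stromal gene (right), in each tissue and on average; red is higher and blue lower in KO, and stars mark genes called on average. The stromal values are mostly blue outside brain, with 24 of 25 averages below 0.

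Of 22 tested peroxiredoxin and thioredoxin genes, 0 were called in edgeR, DESeq2 or limma-voom. In edgeR 3 had an unadjusted p under 0.05, and the list median was -0.01. Of all 15798 genes, edgeR called 1.68%, DESeq2 745 and limma-voom 630, and 3043 had an unadjusted p under 0.05 in edgeR. Txnrd3, a thioredoxin reductase, averaged -0.34 (SE 0.11, edgeR adjusted p = 0.119) and Srxn1, which repairs overoxidised peroxiredoxins, averaged -0.28 (SE 0.11, edgeR adjusted p = 0.17). Of 30 glutathione and NRF2 target genes, edgeR called 1 lower, Abcc1, an exporter of glutathione conjugates, at -0.30 (SE 0.07, edgeR adjusted p = 0.0261), while DESeq2 called 2 and limma-voom 3. Abcc1 lost its call without the lymphocyte-rich libraries (-0.27, edgeR adjusted p = 0.0952) and without the muscle-rich libraries (-0.27, edgeR adjusted p = 0.164). It also lost its call with means over tissues per genotype and number (-0.32, limma adjusted p = 0.108). Bach1, a repressor of NRF2 targets, fell by 0.28 (SE 0.05, edgeR adjusted p = 0.00563). With means over tissues per genotype and number Bach1 did not pass (limma adjusted p = 0.0967).

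Stress and energy genes showed few calls. For comparison, edgeR called 1.68% of all 15798 genes, DESeq2 745 and limma-voom 630, and 3043 had an unadjusted p under 0.05 in edgeR. Of 21 tested heat shock chaperone genes, 18 were higher and 1, Chordc1, was called by edgeR, at 0.32 (SE 0.08, edgeR adjusted p = 0.049). Chordc1 lost its call in 37 of 53 alternative settings. DESeq2 called 6 and limma-voom 5. The list median was 0.55 in brown fat and 0.31 in liver, against 0.01 in inguinal fat and -0.02 in brain. In brown fat KO library 3 stood apart, with a mean log2 CPM of 7.81 over the list against 7.02 and 6.94 in the other KO libraries. ER chaperone genes were higher in 16 of 19, with 0 called in edgeR, 9 at an unadjusted p under 0.05, 2 in DESeq2 and 3 in limma-voom, and Hspa5, the main ER chaperone, averaged 0.41 (SE 0.12, edgeR adjusted p = 0.0704). The ER list median was 0.53 in liver against 0.09 in inguinal fat, 0.02 in brown fat and 0.11 in brain, and without liver 12 of 19 were higher with a median of 0.07. The 37 complex I genes gave 0 calls in edgeR, DESeq2 and limma-voom, and 0 at an unadjusted p under 0.05, as did the 37 genes of complexes II to V. Of 24 interferon response genes, edgeR, DESeq2 and limma-voom called 0, and 1 had an unadjusted p under 0.05 in edgeR. Ribosomal protein genes were higher in 28 of 30, while edgeR, DESeq2 and limma-voom called 0, and 1 had an unadjusted p under 0.05 in edgeR. Their median was -0.11 in brain against 0.28, 0.16 and 0.10 in inguinal fat, brown fat and liver, and 18 of 30 were higher without the 2 lymphocyte-rich libraries. Pisd, which makes phosphatidylethanolamine in mitochondria, averaged 0.38 (SE 0.07, edgeR adjusted p = 0.00696) and was the 1 called of 13 tested phospholipid genes. By mean TPM, Pisd went from 57.11 in WT to 71.58 in KO inguinal fat and from 53.46 to 63.83 in brown fat. The rise was largest in brain, from 85.24 to 145.50, and liver hardly moved, from 27.85 to 28.08. Without brown fat, 0 of the 12 phospholipid genes then tested were called.

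**Figure D4:**
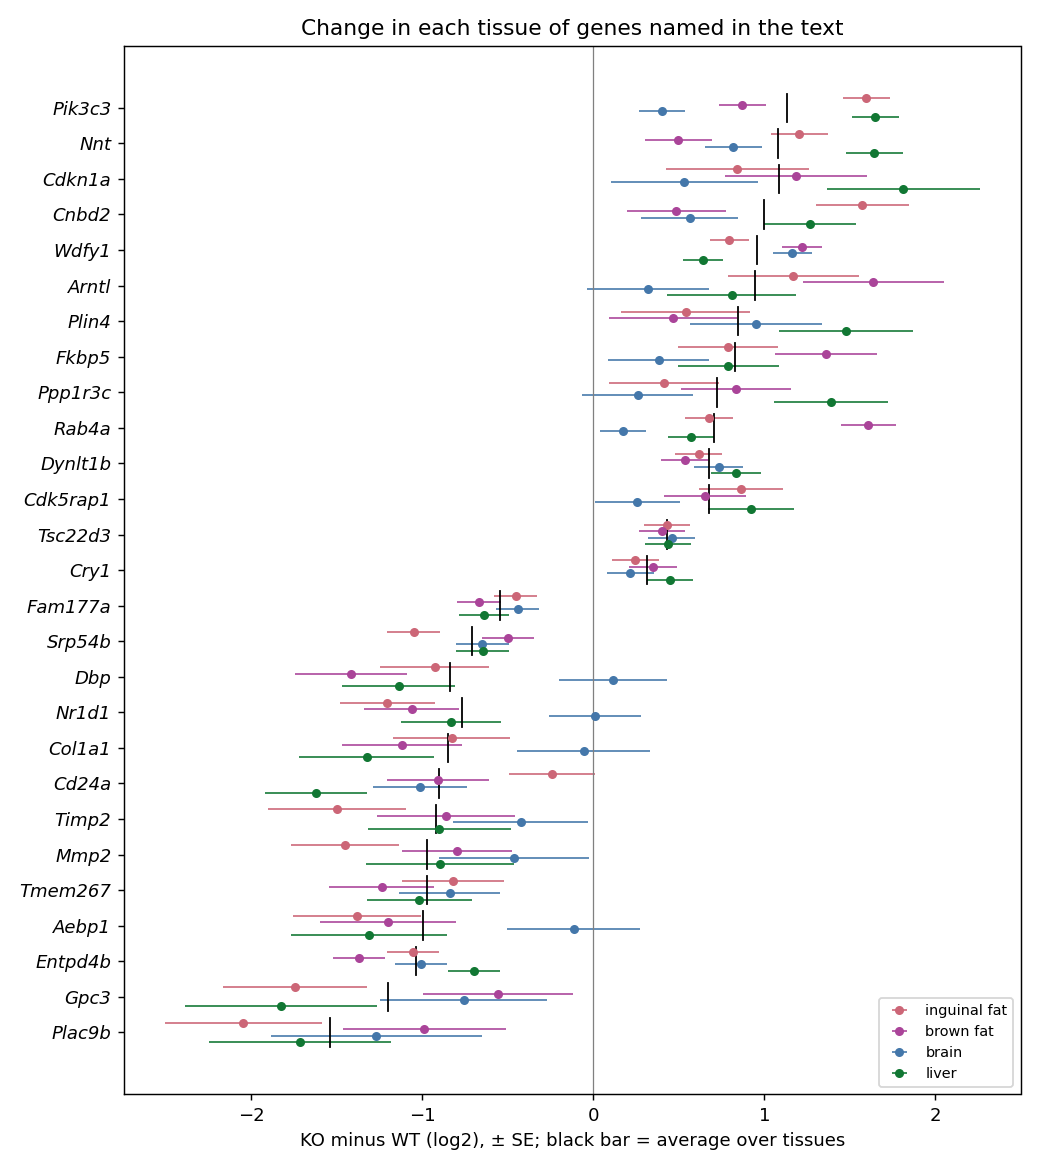
KO minus WT change (log2, points with bars of 1 SE) in each tissue of 27 genes named in the text, with the average over tissues as a black bar. Tsc22d3 points nearly coincide at 0.4 to 0.46, while Pik3c3 spans 0.4 to 1.65.

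A further 65 called genes were not measured in every tissue. Lrmda, a melanocyte differentiation gene, was lower in KO in each tissue, with 10.5, 6.64 and 8.58 CPM in WT against 0.733, 1.45 and 0.764 CPM in KO inguinal fat, and it was at 0 in the 3 KO livers. Cyp2a22, a liver cytochrome P450, was called on liver alone. There WT read 203, 205 and 143 CPM and KO 7.57, 4.37 and 6.11 CPM, and it was at or near 0 elsewhere. Ccl2, a monocyte chemokine, averaged -1.66 (SE 0.34, edgeR adjusted p = 0.0136) with under 1 CPM in brain and liver, and its inguinal fat values moved with the macrophage marker sums given above, whose part was not tested. Ccl2 was the 1 called of 19 tested inflammatory genes, where edgeR called 1.68% of all genes. E2f2, a cell cycle factor, averaged 1.3 (edgeR adjusted p = 0.0702) and did not pass. The 28 cell cycle genes gave 0 calls in edgeR, 4 at an unadjusted p under 0.05, and 1 each in DESeq2 and limma-voom. Among all 15798 genes, 3043 had an unadjusted p under 0.05 in edgeR, DESeq2 called 745 and limma-voom 630.

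The remaining lists gave few calls. As a background, 3043 of all 15798 genes had an unadjusted p under 0.05 in edgeR, and DESeq2 called 745 and limma-voom 630. Of 11 tested nucleotidase and Golgi genes, 1 was called, Entpd4b, where edgeR called 1.68% of all genes. The 23 integrated stress response genes gave 0 calls in edgeR, 8 at an unadjusted p under 0.05, and 1 each in DESeq2 and limma-voom. The 25 immediate early genes gave 0 calls in edgeR, 10 at an unadjusted p under 0.05, 3 in DESeq2 and 2 in limma-voom. Of 24 cholesterol genes, 19 were below 0 on average and 0 were called in edgeR, with 8 at an unadjusted p under 0.05, 2 in DESeq2 and 1 in limma-voom. Of 20 fatty acid synthesis genes, 17 were below 0 with a median of -0.31, and 0 were called in edgeR, with 10 at an unadjusted p under 0.05, 5 in DESeq2 and 1 in limma-voom. Their median was -0.81 in inguinal fat and -0.49 in liver, against 0.03 in brown fat and -0.03 in brain, and it was -0.14 without inguinal fat. The 24 fatty acid oxidation genes gave 0 calls in edgeR, 3 at an unadjusted p under 0.05, 1 in DESeq2 and 0 in limma-voom. The 20 one-carbon genes gave 0 calls in edgeR, 5 at an unadjusted p under 0.05, and 1 each in DESeq2 and limma-voom. The 10 tested PYHIN genes, sensors of cytosolic DNA, gave 0 calls in edgeR, 3 at an unadjusted p under 0.05, 1 in DESeq2 and 0 in limma-voom.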

How the data were processed

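RNA-seq was made from 24 libraries. Per the file headers, the authors deposited 1 table of 19015 genes with expected counts, not normalised, and TPM values per library. Per the submitters' processing notes, the tools were RSEM 1.3.1, Bowtie2 2.3.4.3 and DESeq2 1.4.5, on GRCm38.p6. Gene identifiers matched the RefSeq table for 18958 genes (99.7%). A further 48 per-sample columns were not used. Library totals were 12327448 to 18257785 counts.

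Expected counts were rounded and fitted with edgeR 4.0.16 (R 4.3.3), TMM factors, filterByExpr and a quasi-likelihood F-test on tissue plus genotype. P-values were Benjamini-Hochberg adjusted and called under 0.05. Per-tissue values came from a fit of 8 group means on all 24 libraries, and differences between tissues from the tissue by genotype term. SEs were derived from F. CPM used all-library TMM factors. Near-identical copies came from blastn on GENCODE vM21 transcripts, chosen after the data were seen in place of protein comparisons.

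Named genes were Prxl2a, the largest changes alike in 4 tissues (non-overlapping first, then 10 rises and 10 falls with plain symbols), up to 4 called members per list (or the 2 smallest p), genes differing most between tissues and called genes not measured everywhere. Dynlt1b, Srp54b, Fam177a, 1700047I17Rik2, Tsc22d3, Arrdc2, Bach1, Clock, Nr1d2, Col1a2 and the near-identical copies were added after their values were seen. The members, the 25 lists and the tests were chosen with earlier results of these data known.

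On simulated data, 45 of 67 genes changed by 0.5 on the log2 scale were called, 64 of 67 changed by 1 and all 66 changed by 2. There were 4 false calls among 15496 unchanged genes. The simulated libraries were independent, with a spread set by expression level alone and none standing apart. Changed genes averaged at least 1 CPM in every tissue and had the same change in all 4. These counts therefore do not measure how reliable the calls in the real libraries are. Alternatives covered normalization, filters, limma 3.58.1, DESeq2 1.42.0, TPM with limma, blocks and left-out libraries or tissues.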

Additional observations from a re-analysis of the deposited data

Results flagged for a closer look

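The KO change of 11 of the named genes differed between the 4 tissues by a test of the difference itself (edgeR tissue by genotype term, adjusted over 15798 genes, of which 68, or 0.430%, passed and 3026 had an unadjusted p under 0.05). The count of 11 was partly set by the naming rule, which picked 6 of them for the smallest p of this term, so it is not compared with the share over all genes.

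Pik3c3 (adjusted p = 0.00755) changed by 1.60 in inguinal fat, 0.87 in brown fat, 0.40 in brain and 1.65 in liver, and KO was above WT in all 4 tissues. Rab4a (adjusted p = 0.0171) changed by 0.68 in inguinal fat, 1.61 in brown fat, 0.17 in brain and 0.57 in liver. Nr1d2, a clock repressor whose average did not pass, had a difference of -0.68 in inguinal fat, -0.63 in brown fat, 0.35 in brain and -0.51 in liver (adjusted p = 0.0423), so its brain value had the opposite sign. E2f2, which did not pass on average either, had 2.26 in inguinal fat, 2.65 in brown fat, -0.30 in brain and -0.10 in liver (adjusted p = 0.0430).

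The other 7 were predicted models. LOC115489935, LOC115490111, Gm41844 and LOC115488029 had an adjusted p of 0.00229, LOC115487832 had 0.0111, and LOC115488503 and Gm43305 had 0.0430. LOC115488503 changed by 3.28 in inguinal fat, 2.29 in brown fat, 1.51 in brain and 2.37 in liver. Gm41844 changed by 3.22 in inguinal fat, 1.09 in brown fat, 0.95 in brain and 4.84 in liver. Without KO library 2 of inguinal fat, the count of genes whose change differed between tissues was 2910 in place of 68, and without KO library 3 of brain it was 15.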

How the results depend on the processing

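Prxl2a was called in all 53 settings, at -4.84 to -4.41. Of 73 called genes named here, 20 were called in every setting, 53 lost their call in at least 1 and 0 changed sign, while 17 named genes that had not passed did so in at least 1. The cause of each change below was not tested.

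For the counts of genes changed on average (265), changed alike (179) and differing between tissues (68), DESeq2 gave 745, 444 and 1201, limma-voom 630, 301 and 83, and quality weights 636, 271 and 4938. The mean of the 4 tissue contrasts gave 521 and 297. A log2 change of at least 1 left 74 and 32. The count differing between tissues was 145 with 1 CPM in 3 libraries of every tissue, 105 with RLE, 144 on log2(TPM + 1) and 287 without its filter.

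Same-numbered WT and KO libraries of a tissue did not deviate together (correlations -0.24 to 0.34, above 0.1 in 2 of 12), so numbers were not used as pairs. With the replicate block the counts were 215, 154 and 25, and with the replicate block within tissue 82, 61 and 16. Under the latter Arntl, Nr1d1 and Dbp did not pass. Genotype and number as a random block over tissues gave 840 and 420, and means over tissues per genotype and number 132 and 77.

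Without inguinal fat the counts were 74, 52 and 123, without brown fat 76, 55 and 21, without brain 615, 474 and 0, and without liver 73, 57 and 3. Added after seeing the data, leaving out KO libraries 1 and 3 of inguinal fat gave 123 and 87, and leaving out WT libraries 1 and 2 of inguinal fat and 1 of brown fat gave 90, 63 and 294. Leaving out 1 library gave 130 (KO 3 of inguinal fat) to 372 (KO 2 of inguinal fat) on average, 98 to 252 alike for the same libraries, and 15 (KO 3 of brain) to 2910 differing (KO 2 of inguinal fat). Leaving out a number of 1 genotype in all tissues gave, for WT 1, 2 and 3, 108, 103 and 153 changed on average, 76, 75 and 105 changed alike, 254, 10 and 30 differing between tissues, and for KO 1, 2 and 3, 165, 143 and 76 changed on average, 126, 102 and 58 changed alike, 23, 2041 and 3 differing between tissues.

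The sign turned in some settings for 7 named genes that did not pass, 5 of them markers of the tissue labels. Adipoq was 0.00817 as reported and -0.0155 with RLE, -0.0146 with DESeq2, -0.0402 with limma-voom, -0.0198 with the replicate block, -0.0427 with the replicate block within tissue, -0.0395 with the random block, -0.0205 with means per number, -0.0290 with log2(TPM + 1), -0.0253 with log2(TPM + 0.1), -0.0290 with log2(TPM + 1) unfiltered, -0.0178 with brown fat left out, -0.0101 with brain left out, -0.00788 with WT 2 left out in all tissues, -0.0108 with WT 3 left out in all tissues, -0.186 with KO 2 left out in all tissues and -0.00224 with KO 3 left out in all tissues, and ranged from -0.18 to 0.15 with single libraries left out. Gfap was 0.0250 as reported and -0.0294 with DESeq2, -0.0520 with the mean of contrasts, -0.0859 with means per number, -0.0278 with log2(TPM + 0.1), -0.0711 with WT 1 left out in all tissues, -0.115 with WT 2 left out in all tissues, -0.119 with KO 1 left out in all tissues and -0.0688 with KO 3 left out in all tissues, and ranged from -0.17 to 0.30 with single libraries left out. Snap25 was -0.0176 as reported and 0.00813 with quality weights, 0.0151 with brown fat left out, 0.120 with WT 2 left out in all tissues, 0.0817 with KO 1 left out in all tissues and 0.0451 with KO 3 left out in all tissues, and ranged from -0.18 to 0.13 with single libraries left out. Ucp1 was 0.180 as reported and -0.103 with WT 3 left out in all tissues and -0.104 with KO 3 left out in all tissues, and ranged from -0.032 to 0.36 with single libraries left out. Alb was -0.344 as reported and 0.133 with inguinal fat left out. Ndufa9 was -0.0874 as reported and 0.00765 with inguinal fat left out and 0.0144 with lymphocyte-rich libraries left out. Ermard was -0.0337 as reported and 0.0507 with brown fat left out and 0.0414 with KO 2 left out in all tissues, and ranged from -0.070 to 0.0021 with single libraries left out.

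Of the 179 genes, 26 stayed called without each tissue in turn, 15 of them predicted models.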
